A study of Homo sapiens with 20 samples.

Results

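HSPA6, an HSP70 chaperone gene that human cells switch on under protein damage, differed between 10 heated libraries that carried only 2 group labels. The genes that moved with it inside each group are described here. All 10 libraries hold polyA RNA of MHCC-97H, a human hepatocellular carcinoma line. The cells of all 10 had 15 minutes in a 47 °C water bath and then 24 hours in an incubator. The 5 libraries named NC are labelled wild-type, and the 5 named NFS1 are labelled NFS1 knockdown, made with shRNA per the series' design text. NFS1 is the cysteine desulfurase that supplies sulfur for iron-sulfur clusters. The sources used here do not say whether NC cells carried a control vector, and no library of this experiment was left unheated. The series holds 20 libraries in all. The other 10 form an earlier experiment on wild-type cells of the same line, 5 from a 37 °C bath (R-37) and 5 from a 47 °C bath (R-47), and serve below only as a place to look genes up.

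Each gene was fitted on the library's HSPA6 level, log2(CPM + 1), with the group label in the model, where CPM is the count scaled to the library's total. The coefficient is a slope: the change in a gene's log2 level for each 1-unit (2-fold) change of HSPA6 within a group. Of 26038 genes in the table, 15085 passed the filter on low counts. Among them 592 rose with HSPA6 (3.92%) and 769 fell (5.10%) at an adjusted p under 0.05. These followers were chosen on their counts in the same 10 libraries, so their slopes and counts are descriptions and carry no test. The slopes of the 592 ran from 0.05 to 1.31 with a median of 0.14, and 24 of them exceeded 0.5. Scaling by library totals in place of TMM factors gave 808 rising and 379 falling, so rising genes made up 68.1% of the calls in place of 43.5%. The slopes of the 769 ran from -0.48 to -0.05 with a median of -0.10. At the edge of the rule, ZNF282 was just inside with a slope of 0.09 (SE 0.03) and CASTOR2 just outside with 0.08 (SE 0.02).

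The heat shock response is driven by the transcription factor HSF1, which binds short inverted repeats called heat shock elements when unfolded protein occupies the chaperones that hold it inactive. Its classic targets are the inducible HSP70 genes, their J-domain partner DNAJB1 (an HSP40 that feeds clients to HSP70 and triggers its ATPase), the nucleotide exchange factor BAG3, and small heat shock proteins that hold unfolded chains. HSP70 and DNAJB1 in turn restrain HSF1, so the response normally fades after the stress has ended. Hepatocellular carcinoma cells often keep part of this programme active without heat.

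The bases before the RefSeq starts (GRCh38.p14) of the covariate gene and of the genes that marked it are shown because heat shock elements are known from such promoters. Capitals mark matches to GAANNTTC or TTCNNGAA, each of which reads the same on both strands. The 2 motifs can overlap. HSPA6 is at chr1:161524290-161524539 (plus strand), HSPA1A at chr6:31815293-31815463 (plus), HSPA1B at chr6:31827488-31827734 (plus), DNAJB1 at chr19:14518421-14518647 (minus, the 1 of its 3 windows with a match) and BAG3 at chr10:119651130-119651369 (plus). Each stretch stops before the first transcribed base of GENCODE v29.
HSPA6: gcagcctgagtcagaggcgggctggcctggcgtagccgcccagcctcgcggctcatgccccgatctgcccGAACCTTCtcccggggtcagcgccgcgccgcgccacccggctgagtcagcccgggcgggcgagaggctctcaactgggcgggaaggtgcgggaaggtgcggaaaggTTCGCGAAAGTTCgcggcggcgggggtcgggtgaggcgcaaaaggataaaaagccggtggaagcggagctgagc
HSPA1A: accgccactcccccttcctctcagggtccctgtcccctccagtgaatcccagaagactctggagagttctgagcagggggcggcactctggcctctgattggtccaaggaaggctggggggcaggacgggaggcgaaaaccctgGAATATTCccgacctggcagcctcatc
HSPA1B: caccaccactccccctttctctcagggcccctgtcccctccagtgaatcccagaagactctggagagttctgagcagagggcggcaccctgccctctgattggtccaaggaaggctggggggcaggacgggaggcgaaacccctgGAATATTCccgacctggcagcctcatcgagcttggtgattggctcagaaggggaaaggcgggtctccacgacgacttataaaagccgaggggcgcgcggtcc
DNAJB1: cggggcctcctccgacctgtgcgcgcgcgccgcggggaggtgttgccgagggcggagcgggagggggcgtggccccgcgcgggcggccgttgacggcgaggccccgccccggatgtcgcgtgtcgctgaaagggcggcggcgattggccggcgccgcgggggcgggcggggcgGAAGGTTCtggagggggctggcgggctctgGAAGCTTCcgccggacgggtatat
BAG3: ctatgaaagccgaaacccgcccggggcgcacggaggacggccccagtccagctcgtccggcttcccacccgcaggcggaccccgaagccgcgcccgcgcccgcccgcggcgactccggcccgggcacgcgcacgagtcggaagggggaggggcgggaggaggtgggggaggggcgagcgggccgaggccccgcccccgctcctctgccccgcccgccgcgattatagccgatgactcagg
HSPA6 had 3 matches, and the last 2 overlapped into a run of 3 half-elements, the only such run among these genes; HSPA1A and HSPA1B had 1 each, DNAJB1 had 2, and BAG3 had none in these letters. Of all 35116 RefSeq windows searched over 250 bases, 11.6% held a match and 0.441% such a run. Among followers with a window, 12.9% of 473 rising genes and 11.9% of 605 falling genes held a match, beside 11.9% of the 11749 tested genes with a window. The followers as a group thus held these letters about as often as all tested genes.

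HSPA6 stood at 5.77, 6.48, 15.8, 32.6 and 42.3 CPM across the 5 NC libraries, replicates 1 to 5 in that order. The NFS1 libraries, in the same order, held 61.3, 282, 275, 24.3 and 90.9 CPM. NFS1 replicate 4 was the only NFS1 library inside the NC range, and NFS1 replicates 2 and 3 were far above the rest. The range within NC was 7.34-fold and within NFS1 11.6-fold. In the 10 libraries of the earlier experiment HSPA6 lay between 0.309 and 1.42 CPM, below every NC and NFS1 library. NC and R-47 share genotype, bath and incubation as labelled, and their HSPA6 levels did not overlap; the experiment and the group cannot be told apart there. NFS1 replicate 4 alone held 27.6% of the within-group variation of the covariate (sum of squares), the largest share of any library.

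Depth did not separate the libraries, at 35426500 to 36744100 counts each, rounded to 6 significant digits. The mitochondrially encoded share of counts was 3.50 to 4.81%, and it was highest in the library of lowest HSPA6 in each group (NC replicate 1 at 4.40%, NFS1 replicate 4 at 4.81%). NFS1 replicate 4 also stood apart in the genes it counted, with a mean nuclear gene length, weighted by counts, of 4960 bp against 4497 to 4668 bp in the other 9. No 2 replicates agreed within counting noise (chi-square per degree of freedom of at least 3.43). The knockdown label was checked on NFS1 itself, at 76.2 to 82.5 CPM in NC and 69.8 to 76.5 CPM in NFS1; edgeR's quasi-likelihood test gave a log2 difference of -0.11 (SE 0.05, adjusted p = 0.11). The labels do not say whether replicates were separate cultures. The p-values therefore describe only how these samples vary, and part of that may be technical. In bulk RNA, more cells with an active response and more RNA per cell cannot be told apart.

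HSPA1A and HSPA1B, the near-identical pair of inducible HSP70 genes in the major histocompatibility region of chromosome 6, followed HSPA6 almost unit for unit. HSPA1A stood at 45.2, 60.2, 98.8, 214 and 265 CPM in NC and at 225, 978, 938, 108 and 325 CPM in NFS1, in replicate order. Its libraries fell in the same order as HSPA6 within each group, and the groups overlapped. HSPA1B stood at 27.3, 31.6, 47.2, 98.5 and 133 CPM in NC and at 121, 643, 632, 60.9 and 180 CPM in NFS1 (179.6 before rounding). The slopes were 0.90 (SE 0.03) for HSPA1A and 0.92 (SE 0.04) for HSPA1B. HSPA1A kept a slope of 0.89 to 0.92 with each library left out in turn. Reads can be split between these copies and HSPA6, so each single value is uncertain. Per gene length, HSPA1A stood at 18.8 to 110.3 FPKM in NC and 45.1 to 408 FPKM in NFS1, and HSPA6 at 2.45 to 17.98 FPKM and 10.3 to 119.6 FPKM. HSPA6 was thus the lower of the pair in every library.

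**Figure D1:**
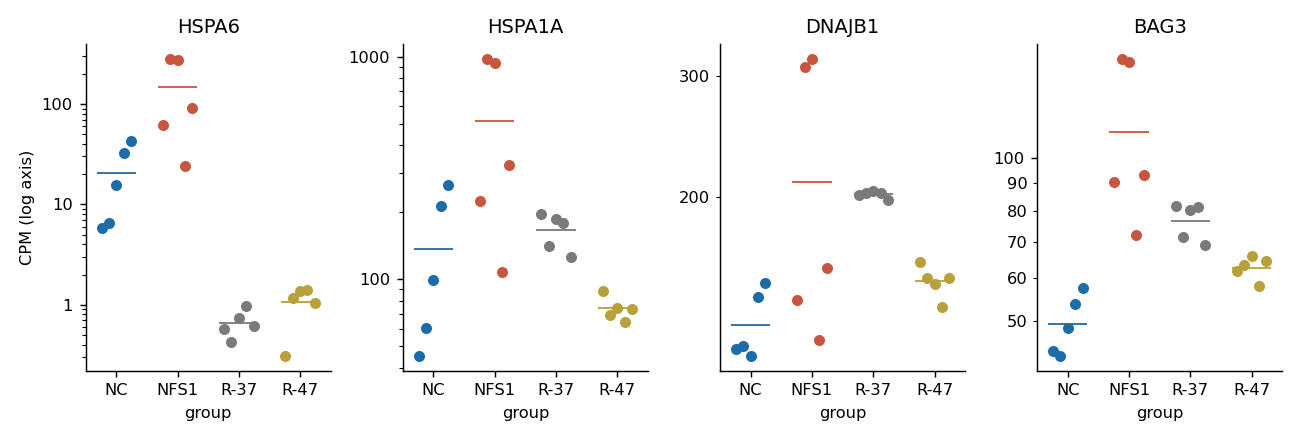
Levels of HSPA6, HSPA1A, DNAJB1 and BAG3 in CPM (log axis), 1 point per library in replicate order and a line at the mean of 5. HSPA6 spans 5.77 to 282 CPM in NC and NFS1 and stays at or below 1.42 CPM in R-37 and R-47, while the other 3 genes are also well expressed there.

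DNAJB1 and BAG3 followed less steeply. DNAJB1 stood at 120, 121, 117, 143 and 150 CPM in NC (119.8 and 149.6 before rounding) and at 142, 309, 318, 124 and 158 CPM in NFS1. NFS1 replicates 2 and 3 stood far above the other 8 libraries, which lay within 117 to 158 CPM. Its slope was 0.28 (SE 0.05), and 0.12 without those 2 libraries. BAG3 stood at 43.9, 43.0, 48.4, 53.6 and 57.5 CPM in NC and at 90.4, 153, 151, 72.0 and 93.1 CPM in NFS1. All 5 NFS1 libraries were above all 5 NC libraries, and within each group the order was nearly that of HSPA6. BAG3 had a slope of 0.24 (SE 0.03), and 0.15 without NFS1 replicates 2 and 3.

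The HSP70 and HSP110 list had a median slope of 0.05, beside -0.002 for all tested genes. It had 5 rising members of 14 tested (35.7%, beside 3.92% of all tested genes) and none falling. Beyond the pair on chromosome 6 these were HSPA2 (0.59, SE 0.08), HSPA1L (0.42, SE 0.10), both under 4 CPM in every library, and HSPA5 (0.08, SE 0.02), the HSP70 of the endoplasmic reticulum. HSPA8, the constitutive cytosolic HSP70, had a slope of 0.09 (SE 0.03) and HSPH1, an HSP110 exchange factor, 0.06 (SE 0.04). Neither was called, but in simulated data only 34% of genes given a slope of 0.1 were called. By FPKM, which divides by gene length, HSPA8 stood at 213 to 310 in NC and NFS1 (309.8 before rounding), and HSPA1A passed the HSPA8 level of its own library only in NFS1 replicates 2 and 3, at 408 against 309.8 and 391 against 299.

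Small heat shock proteins had 4 rising members of 7 tested (57.1%, beside 3.92% of all tested genes) and a median slope of 0.17. HSPB8, which pairs with BAG3 in clearing misfolded protein, stood at 30.1, 30.5, 32.7, 36.9 and 41.1 CPM in NC and at 35.1, 53.1, 51.5, 30.7 and 37.9 CPM in NFS1. CRYAB, the alpha-B crystallin, stood at 45.8, 51.4, 58.4, 68.3 and 67.5 CPM in NC and at 69.6, 80.4, 80.8, 49.5 and 62.9 CPM in NFS1. In both genes the groups overlapped, and NFS1 replicate 4 was the lowest NFS1 library. The slopes were 0.19 (SE 0.02) for HSPB8, 0.18 (SE 0.02) for CRYAB, 0.17 (SE 0.04) for HSPB1 and 0.49 (SE 0.14) for HSPB9, a gene at or under 1.10 CPM. Without NFS1 replicate 4 the HSPB1 slope was 0.09.

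In the rest of the chaperone network single members followed HSPA6. Cytosolic HSP40 genes had 2 rising members of 14 (14.3%, DNAJB1 and DNAJB2) and a median slope of -0.001. The BAG and nucleotide exchange list had 2 of 12 (16.7%, BAG3 and BAG1), HSP90 and its co-chaperones 2 rising (13.3%, FKBP4 and HSP90AB1) and 1 falling (FKBP5) of 15. Of all tested genes 3.92% rose and 5.10% fell. Chaperonins, the ring-shaped folding complexes of the cytosol and of mitochondria, had none of 10 in either direction, and the proteasome had 1 falling member (PSMB2) of 31. HSP90AA1 and DNAJA1, abundant heat-inducible chaperones, had slopes of 0.06 (SE 0.03) and 0.08 (SE 0.03) and were not called. HSP90AB1, which was called, had 0.06 (SE 0.02). Of heat shock factors and their feedback genes, IER5, an immediate early gene that activates HSF1, and ZFAND2A, a stress-induced proteasome partner, rose among 8 tested. HSF1 itself had a slope of 0.002 (SE 0.03) and HSF2 -0.05 (SE 0.04).

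**Figure D2:**
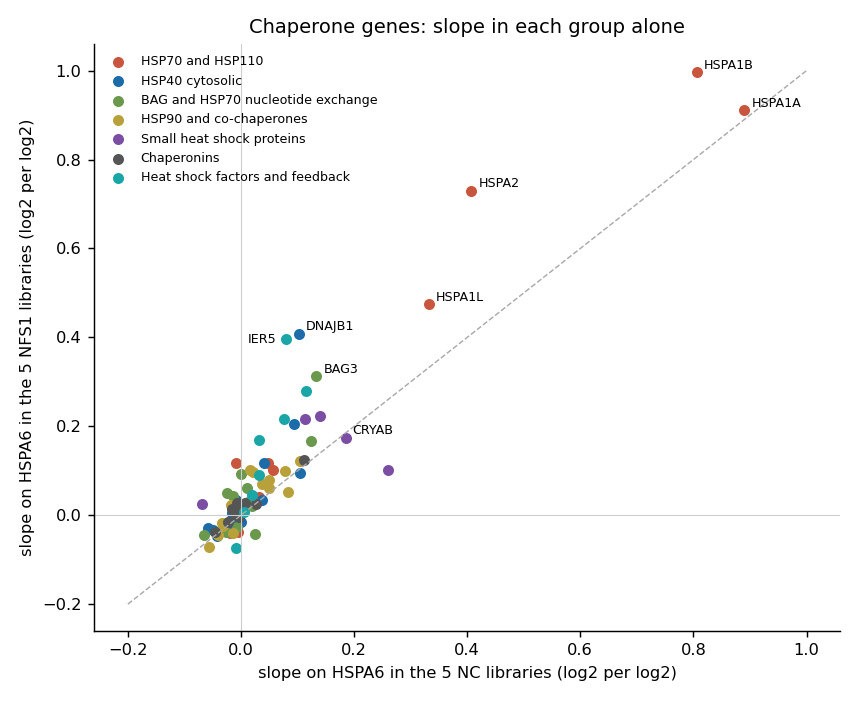
Slope of chaperone genes on HSPA6 in the 5 NFS1 libraries against the 5 NC libraries (log2 per log2), coloured by list, with the dashed line at equal slopes. The 4 HSP70 genes HSPA1A, HSPA1B, HSPA2 and HSPA1L lie apart, DNAJB1, IER5 and BAG3 lie above the line, and most others cluster near 0.

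Other followers of steep slope were not chaperones. RRAD, a small GTPase of the RGK family, stood at 0.0840, 0.0816, 0.304, 0.989 and 2.01 CPM in NC and at 0.745, 4.74, 3.47, 0.278 and 0.804 CPM in NFS1, so a few counts set its lowest values. Its libraries kept the order of HSPA6 nearly throughout, with a slope of 1.31 (SE 0.11), the largest of any tested gene. CPA4, a carboxypeptidase, had a slope of 0.59 (SE 0.06) between 0.700 and 3.74 CPM. DEDD2, a death-effector-domain protein, stood at 25.7, 27.7, 30.8, 36.1 and 41.6 CPM in NC and at 31.5, 56.0, 52.3, 20.7 and 36.1 CPM in NFS1, with a slope of 0.31 (SE 0.03). Its lowest library was NFS1 replicate 4, and the groups overlapped. HEXIM1, the inhibitor of the elongation factor P-TEFb, stood at 95.8, 100, 117, 138 and 137 CPM in NC (100.5 before rounding) and at 110, 152, 135, 84.9 and 113 CPM in NFS1 (109.9 before rounding). Its slope was 0.19 (SE 0.02), and the groups overlapped.

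Of other genes among the 12 steepest risers at a mean log2 CPM of at least 2, PGF, a placental growth factor, had 0.42, HIC1, a transcriptional repressor, 0.41, and DIO2, a deiodinase that activates thyroid hormone, 0.31. ALOXE3, an epidermal lipoxygenase, had 0.31 and SNHG19, a small nucleolar RNA host gene, 0.32 (0.20 without NFS1 replicate 4). The splicing factor U2AF1 had 0.51, but a near-identical copy of it exists and its value is uncertain.

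Immediate early and AP-1 genes, which cells switch on within minutes of a stimulus, had 6 rising members of 30 and 1 falling. FOSB stood at 2.71, 1.71, 4.39, 4.67 and 4.97 CPM in NC and at 7.01, 15.0, 15.1, 4.28 and 5.96 CPM in NFS1, with a slope of 0.49 (SE 0.06). Without NFS1 replicates 2 and 3 its slope was 0.40. JUN (0.19, SE 0.03), DUSP1 (0.19, SE 0.03), ATF3 (0.18, SE 0.04), CCN1 (0.22, SE 0.06) and IER5 (0.26, SE 0.05) made up the rest. DUSP6, the phosphatase that reports ERK activity, fell (-0.15, SE 0.02). GADD45B, a stress sensor on the list of other heat shock factor targets, had a slope of 0.29 (SE 0.04), and that list had 5 rising and 1 falling member of 20. Without NFS1 replicates 2 and 3 the slope was 0.19 for GADD45B and 0.17 for IER5, and IER5 also had 0.17 without NFS1 replicate 4. BBC3, the p53 target that encodes PUMA, was the only rising member of the p53 list (0.29, SE 0.04). It made up 4.76% of the 21 tested, near the 3.92% of all tested genes.

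Other stress lists had rising members too. Of all tested genes 3.92% rose and 5.10% fell. The endoplasmic reticulum list had 4 rising (17.4%) and 2 falling (8.70%) members of 23 (median slope -0.003), HSPA5 among the former. The ATF4 amino acid list had 4 rising of 23 (17.4%). PHGDH, the first enzyme of serine synthesis, had a slope of 0.13 (SE 0.03), and NUPR1, a stress-induced chromatin cofactor, 0.21 (SE 0.05). NUPR1 was called in 3 of 10 fits with a library left out, and had a slope of 0.12 without NFS1 replicate 4. NRF2 targets had 1 rising member (HMOX1) and 5 falling of 25, with ME1 at -0.13 (SE 0.02) and ABCC3 at -0.11 (SE 0.02). Among genes of the study's own themes, ferroptosis defence had 3 rising and 1 falling of 24 and ferroptosis drivers 3 and 3 of 23. The iron-sulfur list had 4 rising (14.8%) and 1 falling (3.70%) of 27. IBA57, an assembly factor for 4Fe-4S clusters, had 0.17 (SE 0.03) and MMS19, which delivers clusters in the cytosol, -0.11 (SE 0.02). GPX4, which reduces lipid peroxides, was not called (0.04, SE 0.02), and NFS1 itself had a slope of 0.0004 (SE 0.02).

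Falling genes changed less per unit of HSPA6 than the leading rising ones. ROR1, a receptor tyrosine kinase-like Wnt receptor, stood at 13.2, 12.7, 10.5, 8.88 and 9.10 CPM in NC and at 17.5, 15.2, 14.9, 23.8 and 16.0 CPM in NFS1. All NFS1 libraries were above all NC libraries, and NFS1 replicate 4 was the highest of the 10. UBASH3B, a phosphatase that acts on tyrosine kinases, stood at 94.3, 97.2, 86.0, 77.2 and 77.5 CPM in NC and at 91.2, 78.6, 77.8, 108 and 88.6 CPM in NFS1, where the groups overlapped. The slopes were -0.20 (SE 0.03) for ROR1 and -0.14 (SE 0.02) for UBASH3B. Among matrix and adhesion genes, VCAN (versican) had -0.20 (SE 0.04; -0.10 without NC replicate 1 and NFS1 replicate 4), FN1 (fibronectin) -0.12 (SE 0.02), MMP1 (a collagenase) -0.14 (SE 0.02) and ITGA2 (an integrin chain) -0.17 (SE 0.03). The lowest slopes at a mean log2 CPM of at least 2 were those of SRGAP2C (-0.23, a near-identical copy of SRGAP2 and uncertain), PLEKHH2 (-0.22) and CFAP300 (-0.21), called in 6, 7 and 6 of the 10 fits with a library left out. Without NFS1 replicate 4 the slope was -0.15 for SRGAP2C and -0.13 for PLEKHH2. Cytoskeleton and SRF targets had 6 falling members of 19 (31.6%) and none rising, with ACTB at -0.09 (SE 0.02) and TPM4 at -0.09 (SE 0.02). Mesenchymal genes had 3 falling of 16 (18.8%), epithelial genes 3 of 13 (23.1%), hypoxia genes 4 of 22 (18.2%), tricarboxylic acid cycle genes 4 of 28 (14.3%) and mitosis genes 3 of 34 (8.82%), beside 5.10% of all tested genes, with none rising in these 5 lists. Ribosomal proteins had none of 52 in either direction.

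Mitochondrially encoded genes, named without their usual prefix and grouped after their values were seen, had 8 falling members of 13 (median slope -0.10). That is 61.5%, beside 5.10% of all tested genes. These genes together make up the mitochondrial share of counts, so they are not 8 separate observations. COX1, a catalytic subunit of respiratory complex IV, stood at 11825, 10244, 9562, 9190 and 8936 CPM in NC (9189.9 before rounding) and at 8249, 7323, 7643, 10970 and 8117 CPM in NFS1 (10969.6 before rounding). It was highest in the library of lowest HSPA6 in each group, and its slope was -0.15 (SE 0.02). Without NC replicate 1 and NFS1 replicate 4, the libraries of highest mitochondrial share, the slope was -0.09. The part of the mitochondrial share in the other slopes was not tested. Nuclear genes of respiratory complex I had 1 rising (NDUFA1, 0.16) and 1 falling (NDUFS1, -0.06) member of 38. That is 2.63% each, beside 3.92% and 5.10% of all tested genes. Without NFS1 replicate 4 the slopes of NDUFA1 and NDUFS1 were 0.08 and -0.04.

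**Figure D3:**
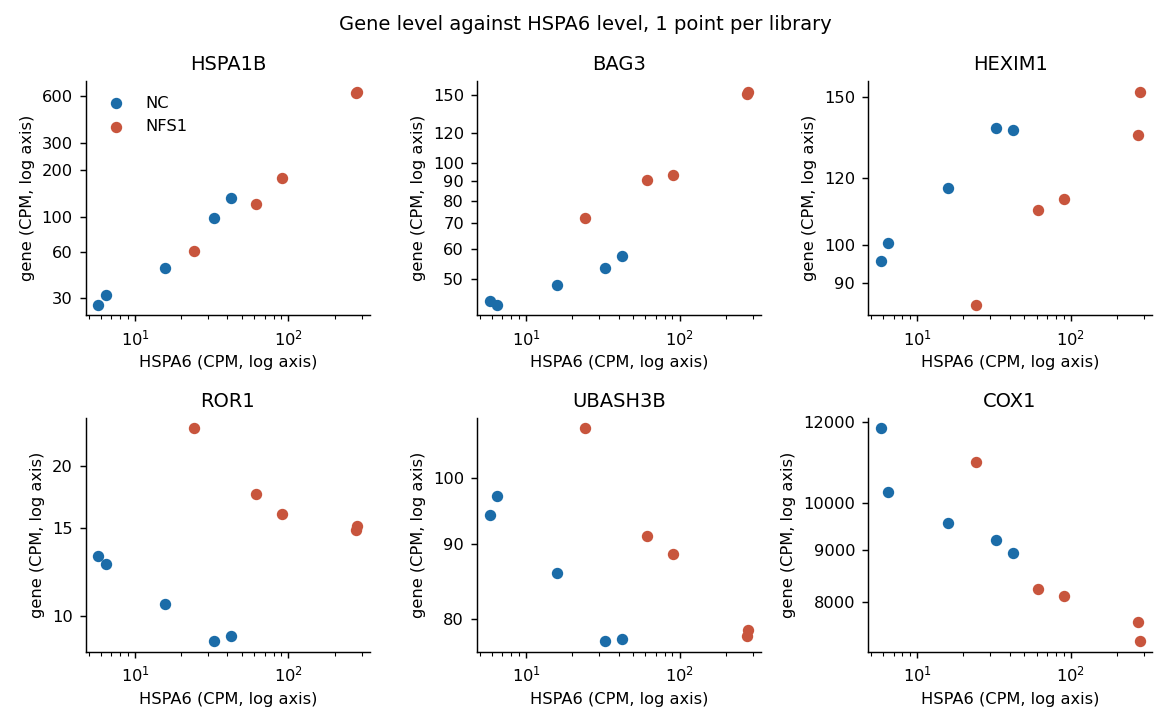
Level of 6 genes against HSPA6 in the same library (CPM, both axes log), 1 point per library, NC in blue and NFS1 in red. HSPA1B rises with HSPA6 in both groups, with the NFS1 points at 1.97 to 2.51 CPM of HSPA1B for each CPM of HSPA6 and the NC points at 2.99 to 4.88, BAG3, HEXIM1 and ROR1 form 1 line per group, and ROR1, UBASH3B and COX1 fall as HSPA6 rises.

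Markers of other cell types were summed in each library. Leukocyte markers stood at 126 to 138 CPM in NC and 145 to 163 CPM in NFS1 with CD3E at 0, and endothelial markers at 61.0 to 74.3 CPM and 57.9 to 63.3 CPM with CDH5 at 0. Fibroblast markers stood at 25.4 to 30.4 CPM and 37.6 to 61.9 CPM, where LUM was the 1 called member of 4 tested (-0.15, SE 0.04). NFS1 replicate 4 held the highest LUM level, 56.3 CPM; without that library the LUM slope was -0.06, and LUM was called in 2 of 10 fits with a library left out. Hepatocyte markers stood at only 6.10 to 8.95 CPM in NC and 4.83 to 6.56 CPM in NFS1, and cholangiocyte markers at 12.3 to 15.5 CPM and 10.4 to 14.9 CPM. The hepatocyte markers, which would define the normal counterpart of this line, were thus low in all 10 libraries. PECAM1 was the 1 called endothelial member of 3 tested (-0.10, SE 0.03), and APOA1 the 1 called hepatocyte member of 4 tested (0.71, SE 0.20). APOA1 stood at no more than 1.004 CPM in NC and NFS1. Both were called in 4 of 10 fits with a library left out. The part of these markers in the slopes was not tested.

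The slopes also moved with base composition and gene length. Rising genes had a median GC content of 56.9% and falling genes 42.9%, beside 48.5% for all tested genes. Their median lengths were 3134 bp and 5168 bp, beside 3791 bp. Genes are not independent replicates; described across them, the slope had a Spearman rho of 0.53 with GC content (13933 genes) and -0.29 with length (15085 genes). The decile of genes lowest in GC held 2 rising and 125 falling genes, and the highest decile 132 and 1. After offsets for length and GC in each library, which are built to remove such trends, rho was 0.02 with GC and -0.006 with length. With them 1144 genes rose and 1493 fell. That fit held only the 13933 genes of known GC content, among them 96.5% of the 592 and 98.3% of the 769. Of the 592 and 769, 521 and 615 were called again, and MT2A, a metallothionein, turned from 0.11 to -0.00315. The part of length, GC and the libraries that carry them in the slopes of single genes was not tested otherwise. With these offsets DNAJB1 had a slope of 0.27, BAG3 0.21, HEXIM1 0.20 and ROR1 -0.16, while FN1 moved from -0.12 to -0.08.

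**Figure D4:**
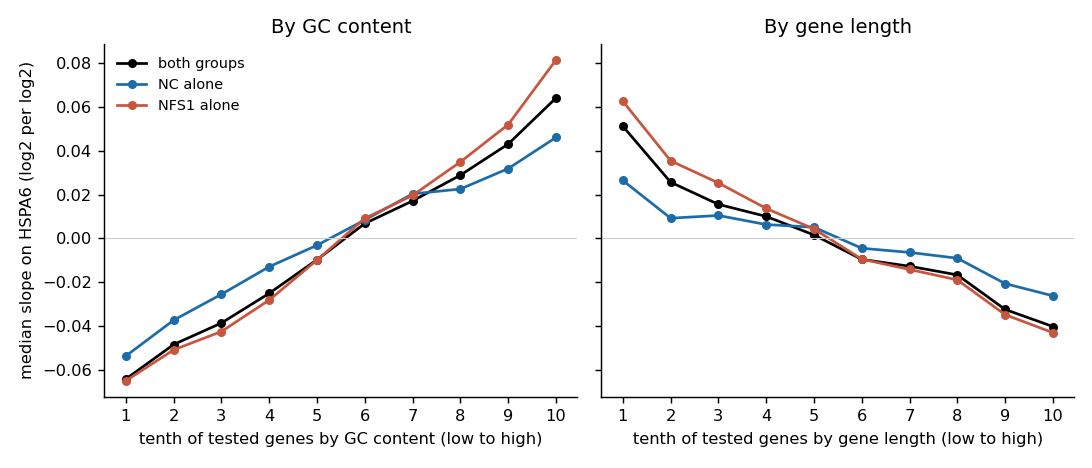
Median slope on HSPA6 (log2 per log2) in each decile of tested genes by GC content and by gene length, for both groups together and for NC and NFS1 alone. The median runs from -0.06 in the decile lowest in GC to 0.06 in the highest, and from 0.05 in the shortest genes to -0.04 in the longest.

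The 2 groups share no library, so genes called in one can be read in the other. In NC alone, with 14189 genes tested, 86 rose (0.606%) and 86 fell (0.606%). In NFS1 alone, of 14168 tested, 12 rose (0.0847%) and none fell in edgeR's test, where 831 fell at an unadjusted p under 0.05. These 12 were HSPA1B, HSPA1A, HSPA2, MMP25, ARC, DNAJB1, GADD45B, IER5, DEDD2, CCN1, BAG3 and JUN. All 12 had a positive slope in NC, where 49.0% of all genes had one, and 4 were called there (HSPA1A, HSPA1B, DEDD2 and BAG3). Of the 86 that rose in NC, 86 had a positive slope in NFS1, beside 49.4% of all genes, and 4 were called. Of the 86 that fell in NC, 84 had a negative slope in NFS1 and none was called. Slopes in each group alone also moved with GC content, with a rho of 0.41 in NC and 0.54 in NFS1. With gene length rho was -0.18 in NC and -0.32 in NFS1. The part of GC content and length in these shared signs was not tested.

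Several of the 12 had a steeper slope in NFS1 than in NC. They were picked by their call in NFS1, which favours a steeper slope there, so their 2 slopes are only a description. The difference itself was tested over all genes as an interaction of group and HSPA6, in the same libraries. DNAJB1 had 0.10 (SE 0.03) in NC and 0.41 (SE 0.05) in NFS1. ARC, a gene of the immediate early class, had 0.03 (SE 0.06) and 0.48 (SE 0.05), and 0.13 over both groups without NFS1 replicates 2 and 3. IER5 had 0.08 (SE 0.03) and 0.40 (SE 0.04), and BAG3 0.13 (SE 0.03) and 0.31 (SE 0.03). HSPA1A had 0.89 (SE 0.04) and 0.91 (SE 0.03). No gene passed in edgeR's quasi-likelihood test (310 of 15085 at an unadjusted p under 0.05, smallest adjusted p = 0.19 for ARC, difference 0.46, SE 0.06). None passed in limma-voom (323 unadjusted), and 4 passed in DESeq2: ARC (adjusted p = 2.2e-05), CCN1 (9.9e-05), IER5 (0.0040) and GADD45B (0.047). NC spans lower HSPA6 levels than NFS1, so a slope that depends on the level and a slope that depends on the label cannot be told apart.

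In R-37 and R-47 the same fit had little HSPA6 to work with, at 0.309 to 1.42 CPM. No gene was called by edgeR, DESeq2 or limma-voom (443, 482 and 469 of 14343 at an unadjusted p under 0.05). Of rising genes fitted there 398 of 558 had a positive slope, beside 51.8% of all genes, and of falling genes 558 of 765 had a negative one. HSPA1A had a slope of -0.24 there and BAG3 0.07. The part of GC content and length in the signs shared with NC and NFS1 was not tested.

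The label comparison was set beside the gradient because HSPA6 differed between the labels too. HSPA6 defines the gradient, and the other genes named here were chosen with results of these libraries known. The p-values and calls that follow therefore describe these libraries and are no independent support. In edgeR HSPA6 was higher in NFS1 by 2.82 on the log2 scale (SE 0.65, adjusted p = 0.0054), and higher in 4 of 5 NFS1 libraries than in any NC library. Without HSPA6 in the model, BAG3 was higher in NFS1 by 1.17 (SE 0.17, adjusted p = 0.00024), HSPA1B by 2.26 (SE 0.60, adjusted p = 0.012), HSPA1A by 1.90 (SE 0.58, adjusted p = 0.024) and DNAJB1 by 0.67 (SE 0.22, adjusted p = 0.038), all from edgeR. HEXIM1 had a difference of 0.004 (SE 0.13, adjusted p = 0.99, edgeR). With each library left out in turn, BAG3, HSPA1B and HSPA6 were called in all 10 of these fits. The HSPA1A call was lost in 4 of them, without NC replicate 2 (adjusted p = 0.065, edgeR), NC replicate 3 (0.062), NFS1 replicate 2 (0.075) or NFS1 replicate 3 (0.067). The DNAJB1 call held only without NFS1 replicate 1, 4 or 5 and was lost in the other 7 fits, with differences of 0.48 to 0.72 and adjusted p from 0.051 to 0.12 (edgeR). All 5 genes stayed higher in NFS1 in every one of these fits. NFS1 replicate 4, the 1 NFS1 library inside the NC range of HSPA6 and the one that stood apart in gene length and mitochondrial share, lies at 24.3 CPM of HSPA6 between NC replicates 3 and 4 (15.8 and 32.6 CPM). HSPA1A in it, at 108 CPM, lay between those 2 NC libraries (98.8 and 214 CPM), and so did HSPA1B and DNAJB1. Its ratio of HSPA1A to HSPA6 counts, 4.46, was below that of every NC library (6.25 to 9.29). With HSPA6 in the model the group term of HSPA1A was -0.61 (SE 0.09) and that of HSPA1B -0.43 (SE 0.16). BAG3, at 72.0 CPM, lay above both (48.4 and 53.6 CPM) and HEXIM1, at 84.9 CPM, below both (117 and 138 CPM).

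Over all genes, the labels differed for 2363 genes higher in NFS1 (15.7%) and 1881 lower (12.5%) without HSPA6, and for 2624 higher (17.4%) and 2012 lower (13.3%) with it. Calls in the same direction in both fits numbered 1695 and 1181. The mean covariate was 2.63 log2 units higher in NFS1, so for a follower the 2 fits ask different questions. Among the 592 rising genes, 83 were higher and 39 lower without HSPA6, and 12 and 306 with it. Among the 769 falling genes these numbers were 194 and 62, and 526 and 17. The slope and the group term come from the same libraries and trade off against each other, so the second pair is a description. As measured, the median rising gene differed by 0.04 between the labels (log2, without HSPA6), and with HSPA6 in the model by -0.34.

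How many followers are called depended on single libraries. With each library left out in turn, 139 to 1383 genes rose and 178 to 1802 fell, lowest without NFS1 replicate 2 and highest without NFS1 replicate 1. The counts were 161 and 202 without NC replicate 1, 202 and 230 without NFS1 replicate 4, 235 and 281 without NC replicate 5, 271 and 339 without NFS1 replicate 3, and 285 and 335 without NC replicate 4. All 592 and all 769 kept their sign in each of the 10 fits, and 106 rising and 105 falling genes were called in every one. Each of these fits reused libraries that had chosen the genes, so kept signs and repeated calls are no independent support. Without NFS1 replicates 2 and 3 together, 3 genes rose (HSPA1A at 0.88, HSPA1B at 0.80 and RRAD at 1.47) and none fell in edgeR's test, where 1540 and 1876 passed an unadjusted p under 0.05. All 592 and 769 kept their sign in that fit as well, which again reused libraries that had chosen them. With the replicate number in the model as a block, 5 genes rose and none fell in edgeR's test, where 1128 and 1089 passed an unadjusted p under 0.05. Whether same-numbered libraries were paired is not stated.

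**Figure D5:**
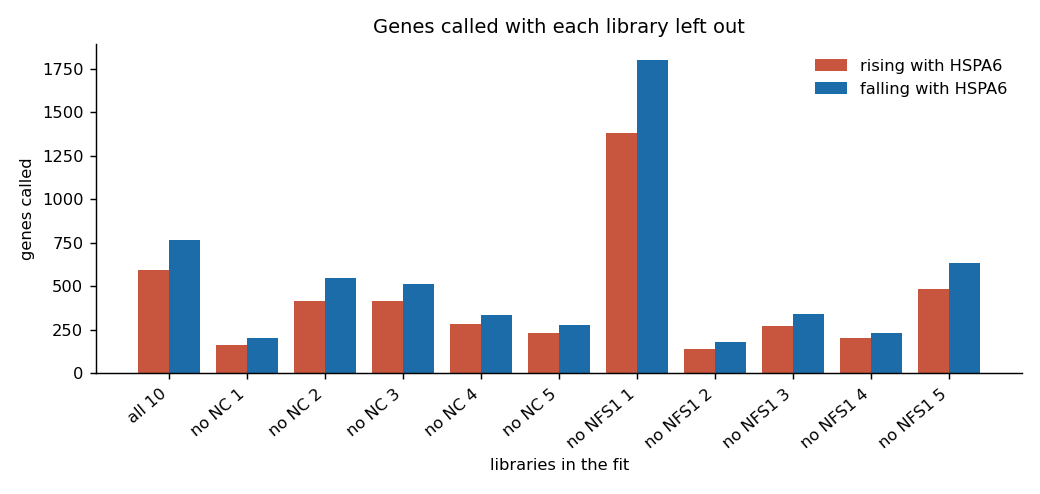
Number of genes called as rising or falling with HSPA6 with all 10 libraries and with each library left out in turn. The counts run from 139 rising and 178 falling without NFS1 replicate 2 to 1383 and 1802 without NFS1 replicate 1.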

How the data were processed

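RNA-seq libraries of 1 human cell line were analysed from 2 tables. The authors deposited counts per gene symbol, made from reads cleaned with fastp, aligned to hg38 with HISAT2 and counted with HTSeq, per the submitters' processing notes. Those notes give no versions, annotation or strandedness. The authors also deposited FPKM values (counts per gene length and library total), used for levels between genes and as an alternative. The labels name TRIzol extraction, polyA RNA and the VAHTS Universal V6 kit.

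Counts were fitted with edgeR 4.0.16 in R 4.3.3 (TMM factors, filterByExpr with a minimum count of 10, quasi-likelihood F-test, Benjamini-Hochberg over all genes tested, threshold 0.05). The model held the group and HSPA6 as log2(CPM + 1). HSPA6 was left out of the response. Alternatives used DESeq2 1.42.0, limma 3.58.1, other scalings and filters, and libraries left out. Per-library offsets for length and GC (mgcv 1.9.3) and the omission of NC 1 with NFS1 4 were added after seeing the data. The leave-one-out of the label comparison without HSPA6 was added likewise. The slope fit was first tested on simulated data. Of genes given a slope of 0.1 in either direction 34% were called, and of those given 0.2 94% were. A gene of small slope that was not called may therefore still follow HSPA6.

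The rule for named genes took the 4 markers, the 12 highest and 12 lowest called slopes at a mean log2 CPM of at least 2, the 6 smallest p in each direction, and 2 called members of each of 40 lists. Other genes, including the uncalled chaperones and the 12 called in NFS1 alone, were named after their values were seen. Members and lists were chosen with earlier results of these data known. Promoter letters came from the RefSeq table (GRCh38.p14).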

Additional observations from a re-analysis of the deposited data

Results flagged for a closer look

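In 23 of 172 groups of 5 libraries examined (86 named genes in NC and in NFS1), 1 library stood apart from the other 4 on the log2(CPM + 1) scale by a gap of more than 0.71 of the range; chance gives about 1 group in 20 for genes chosen without regard to these libraries. These genes were chosen for following HSPA6 in the same libraries and move together, so that rate is no yardstick for the count. NFS1 replicate 4, the NFS1 library of lowest HSPA6, was the distant one in 19 of them and NC replicate 1, the NC library of lowest HSPA6, in the other 4.

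NFS1 replicate 4 was the highest NFS1 library for 13 genes. SRGAP2C stood at 10.9 CPM beside 5.96 CPM in the nearest library, VCAN at 144 beside 95.5, B4GALT6 at 23.9 beside 15.9, TRIQK at 32.1 beside 20.3 and LUM at 56.3 beside 34.5. The mitosis gene ECT2 stood at 254 CPM beside 158, and the nucleotide reductase subunit RRM1 at 332 beside 276. Metabolic genes included ME1 at 151 CPM beside 111, ME2 at 82.1 beside 60.5, DLD at 263 beside 210 (210.2 before rounding) and NDUFS1 at 235 beside 205. PSMB2 stood at 186 CPM beside 160 (160.4 before rounding), and TPM4 at 831 beside 695.

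The same library was the lowest for 6 genes. HSPB1, a small heat shock protein, stood at 229.9 CPM beside 379. PHGDH stood at 43.8 CPM beside 61.7, NUPR1 at 9.25 beside 19.1, MT2A at 14.02 beside 18.3, RELB at 19.2 beside 28.2 and NDUFA1 at 40.6 beside 67.5.

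NC replicate 1 was the lowest NC library for SNHG19 at 7.92 CPM beside 13.5, CXCL2 at 1.09 beside 1.96 and NDUFA1 at 72.1 beside 100.04. It was the highest for TPX2, at 369.6 CPM beside 337.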

How the results depend on the processing

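Counts of genes rising and falling with HSPA6 (592 and 769) moved with the processing. Scaling by library size alone gave 379 falling. DESeq2 gave 990 and 1325, log2(FPKM + 1) 892 and 349, log2(FPKM + 0.1) 894 and 351, and log2(FPKM + 1) with no filter 148 falling. The mean of HSPA1A, DNAJB1 and BAG3 as covariate gave 229 and 243. Without NFS1 2 and 3 there were 3 and 0, in NC alone 86 and 86, and in NFS1 alone 12 and 0. Leaving out 1 library gave 139 to 1383 and 178 to 1802. Length and GC offsets gave 1144 and 1493, with the MT2A slope reversed to -0.00315. Causes were not tested; fits of fewer libraries have fewer samples by construction. DESeq2 size factors in edgeR, no filter, a minimum count of 50, limma-voom, a covariate pseudocount of 0.1 and all 20 libraries in one fit kept both counts within 1.5 times, with 1092 to 1341 of the 1361 genes called again. Without NC 1 and NFS1 4 the counts were 462 and 607, but 424 of the 1361 were called again.

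The replicate block gave 5 rising (HSPA1A, HSPA1B, RRAD, DEDD2 and GADD45B) and 0 falling genes in edgeR, with 1128 and 1089 at an unadjusted p under 0.05. With the length and GC offsets the block gave 281 and 335. Same-numbered NC and NFS1 libraries had correlations of deviations from -0.23 to 0.08, and no library correlated best with its own number in the other group. Whether same-numbered libraries were paired in the experiment is not stated, and these correlations cannot decide it. For the label comparison with HSPA6 in the model (2624 and 2012), the replicate block gave 1211 higher and 684 lower, FPKM with no filter 1707 higher, and leaving out 1 library 1478 to 3355 and 917 to 2922, lowest without NFS1 replicate 4. In R-37 and R-47 the block called 1 falling gene (CD99), and the covariate of 3 markers 1492 and 704. Without HSPA6 in the model (2363 and 1881), leaving out 1 library gave 1794 to 2774 and 1500 to 2362. Slopes that differ between groups numbered 4 in DESeq2.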

Other observations

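The earlier experiment on the same line gives values beside which the heated libraries can be read, although experiment and group cannot be told apart. CRYAB stood at 0.659 to 0.962 CPM in R-37, 12.98 to 17.98 CPM in R-47 and 45.8 to 80.8 CPM in NC and NFS1. The HSPA8 level went the other way by FPKM, at 932 to 1048 in R-37, 514 to 714 in R-47 and 213 to 309.8 in NC and NFS1. HSPA1A did not follow either order, at 126 to 197 CPM in R-37, 64.6 to 88.8 CPM in R-47 and 45.2 to 978 CPM in NC and NFS1.

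The count of HSPA1A for each count of HSPA6 differed between the groups of the heated experiment without overlap. It was 6.25 to 9.29 in the 5 NC libraries and 3.41 to 4.46 in the 5 NFS1 libraries. In R-37 the ratio was 186 to 346 and in R-47 45.5 to 287, on 12 to 54 counts of HSPA6 a library.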
